A study of Homo sapiens with 6 samples.

Results

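The protocadherin genes, here all entries of the count table whose symbol begins with PCDH, were compared between HepG2 cells carrying a control shRNA and HepG2 cells carrying an shRNA against KIF11. They numbered 66 of the 20030 genes listed. Of these, 53 belonged to the clusters, with 15 alpha genes (PCDHA), 16 beta genes (PCDHB) and 22 gamma genes (PCDHG), and 13 were non-clustered protocadherins. HepG2 is an established human hepatoma line. Both groups were infected with lentivirus carrying a short hairpin RNA, a small RNA that directs cleavage of its matching mRNA, in the knockdown vector pLKO.1, with polybrene during infection and puromycin selection afterwards. Group sh-ctrl received a control hairpin and group sh-KIF11 a hairpin against KIF11, the mitotic kinesin that separates spindle poles, and each group had 3 poly(A) RNA libraries. The labels number the sh-KIF11 libraries 1 to 3, as they do the sh-ctrl libraries, and do not say whether 1 hairpin or more was used. The time from infection to RNA isolation is not given in the sources used here. The labels also do not say whether the 3 libraries of a group came from separate cultures. The p-values therefore measure the spread between libraries, which may be technical.

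Protocadherins are cell adhesion proteins of the cadherin superfamily. The alpha, beta and gamma genes lie side by side on the long arm of chromosome 5. Each variable alpha or gamma exon has its own promoter and is spliced to constant exons shared by its cluster, whereas each beta gene is a single exon without a shared part. In neurons, single cells use different subsets of these promoters, and the resulting proteins let a neuron tell its own branches from those of others. Most clustered promoters hold a conserved element with the core CGCT, and the insulator protein CTCF, which together with the cohesin ring folds chromatin into loops, binds at these promoters and at distant enhancers of the clusters. The non-clustered protocadherins are scattered over the genome and have their own regulation.

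The promoters of the clustered genes are shown first because most of the genes that changed belong to the beta and gamma clusters, whose genes start from separate promoters. The RefSeq promoter table (GRCh38.p14, from 250 bases before to 50 bases after the start) had an entry for 57 members, 47 of them clustered. In each of 46 clustered promoters a window of 26 bases around 1 CGCT was taken, choosing the CGCT whose surroundings most resembled those of the other genes of its cluster. The chosen CGCT lay a median of 59 bases before the listed start (quartiles 45.2 and 67.2). The windows of the tested beta genes with an entry follow, with the core in capitals.
PCDHB2: gacgcggggtggCGCTgcagccttag
PCDHB8: gacccgtggtggCGCTgcaggataag
PCDHB16: aacgcgtggtggCGCTgcaggttaag
PCDHB9: gccacaaggtggCGCTgcagactgaa
PCDHB13: gacgcgtggtggCGCTgcaggataag
PCDHB14: gacacatggtggCGCTacaggataag
PCDHB15: aacgcatggtggCGCTgcaggctaag
The windows of the tested gamma genes had other flanks, and those of PCDHGB4 and PCDHGB5 were identical.
PCDHGA1: gactgtgggcgcCGCTgttcactaat
PCDHGA4: gactctgggtgtCGCTgttcaccaat
PCDHGA8: gactgtaagcgcCGCTgttcacctac
PCDHGB1: acctctgggcgcCGCTgtcgaccaaa
PCDHGB2: acctctgagcgtCGCTgttggtcaaa
PCDHGB4: gactctgggcgcCGCTgttggccaaa
PCDHGB5: gactctgggcgcCGCTgttggccaaa
No alpha gene had enough counts for a test, and the windows of the alpha genes with the most counts are given for comparison.
PCDHA7: gccacatgatgtCGCTctttaccgca
PCDHA11: ggcgcaaggtgtCGCTctttacttgg

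The core alone is common, and on either strand CGCT stood in 97.9% of the 47 clustered promoters and in 69.4% of all 27305 promoters of the table. The longer form GNCGCTG stood in 76.6% of the clustered promoters and in 25.2% of all. For each cluster, the most frequent run of 11 bases holding CGCT was then taken from these same promoters, so its frequency there is a description. In the beta cluster this was GGTGGCGCTGC, in 11 of 14 promoters and in 30 promoters of the whole table. ATGATGTCGCT stood in 8 of 13 alpha promoters, which were all 8 matches in the table, and GCGCCGCTGTT in 7 of 20 gamma promoters and 10 of all. None of these 3 runs stood in a promoter of another cluster. Clustered promoters were less rich in G and C than most, with a median of 37.3% for alpha, 40.8% for beta and 42.0% for gamma against 58.3% over all promoters. The 10 non-clustered promoters with an entry had a median of 57.5%.

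The whole promoter of PCDHGB5, the gamma gene with the highest mean FPKM in sh-KIF11, is given with each CGCT on its own strand in capitals (chr5:141397697-141397996, plus strand, GRCh38.p14).
PCDHGB5 promoter: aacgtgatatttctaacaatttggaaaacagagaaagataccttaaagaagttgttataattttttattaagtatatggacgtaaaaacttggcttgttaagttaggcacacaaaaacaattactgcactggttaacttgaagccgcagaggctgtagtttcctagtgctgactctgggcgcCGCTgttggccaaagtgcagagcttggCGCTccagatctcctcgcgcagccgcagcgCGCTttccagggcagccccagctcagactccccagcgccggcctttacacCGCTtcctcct
It held 4 CGCT on its own strand and 2 on the other. The promoter of PCDHGB4 also held 4 and 2, and the 2 promoters of 300 bases differed by 61 single-base changes, insertions or deletions. The promoter of the non-clustered PCDH1 held 0 CGCT on its own strand and 1 on the other.

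Depth was between 18167773 and 19583282 counts per library, so a count of 0 allows up to 3 counts, or 0.145 to 0.178 CPM (counts scaled to library size with edgeR's TMM factors), for counting error only. The TMM factors lay between 0.922 and 0.926 in sh-ctrl and between 1.08 and 1.09 in sh-KIF11. KIF11 itself gave 1976, 2088 and 2039 counts with the control hairpin and 1448, 1478 and 1240 with the KIF11 hairpin, for a log2 fold change of -0.75 (SE 0.06, edgeR adjusted p = 4.22e-15). All 12 hepatocyte markers looked up had counts in every library, and their summed level was 37740 to 39540 CPM in sh-ctrl but 16160 to 17490 CPM in sh-KIF11, with 11 of the 12 lower and TTR not past the test. TF, APOA1, APOH, AHSG, SERPINA1, ALB and AFP, all plasma proteins made by hepatocytes, were lower by more than 2-fold, with log2 fold changes from -2.28 (TF) to -1.24 (AFP). The fit called 69.1% of the 12369 tested genes, so a call by itself separates a gene little from the rest. In bulk RNA, fewer cells that express a gene and less RNA of it per cell cannot be told apart.

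Of the 66 protocadherin genes, 14 had no count in any library and 52 had at least 1. The test could be run on 17, those with enough counts in at least 3 libraries (edgeR's filterByExpr, about 10 counts, or 0.531 CPM computed from the library totals before TMM scaling). Of these, 15 were higher in sh-KIF11, 1 was lower and 1 did not pass, where 34.4% of all tested genes were higher and 34.7% lower. The 15 that were higher included 7 beta genes, 7 gamma genes and the non-clustered PCDH9. The lower one was the non-clustered PCDH1, and the one that did not pass was PCDHB2. A rise of at least 2-fold was seen in all 15, against 8.13% of all tested genes and 33.2% of the 2050 tested genes with a mean under 5 CPM.

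The count of 15 cannot be read directly, because a low gene can pass the filter through one group alone. Only 6 of the 17 were past the cutoff in all 3 sh-ctrl libraries as well, namely PCDHB2, PCDHGB1, PCDHGB4, PCDHGB5, PCDH9 and PCDH1. Among these, 4 were higher, 1 was lower and 1 did not pass. The other 11 passed through sh-KIF11, and 10 of them had no sh-ctrl library past the cutoff, so these genes had to differ in order to be tested. Over all tested genes with a mean under 5 CPM, 46.7% were higher and 10.9% lower, with a median log2 fold change of 0.53.

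**Figure D1:**
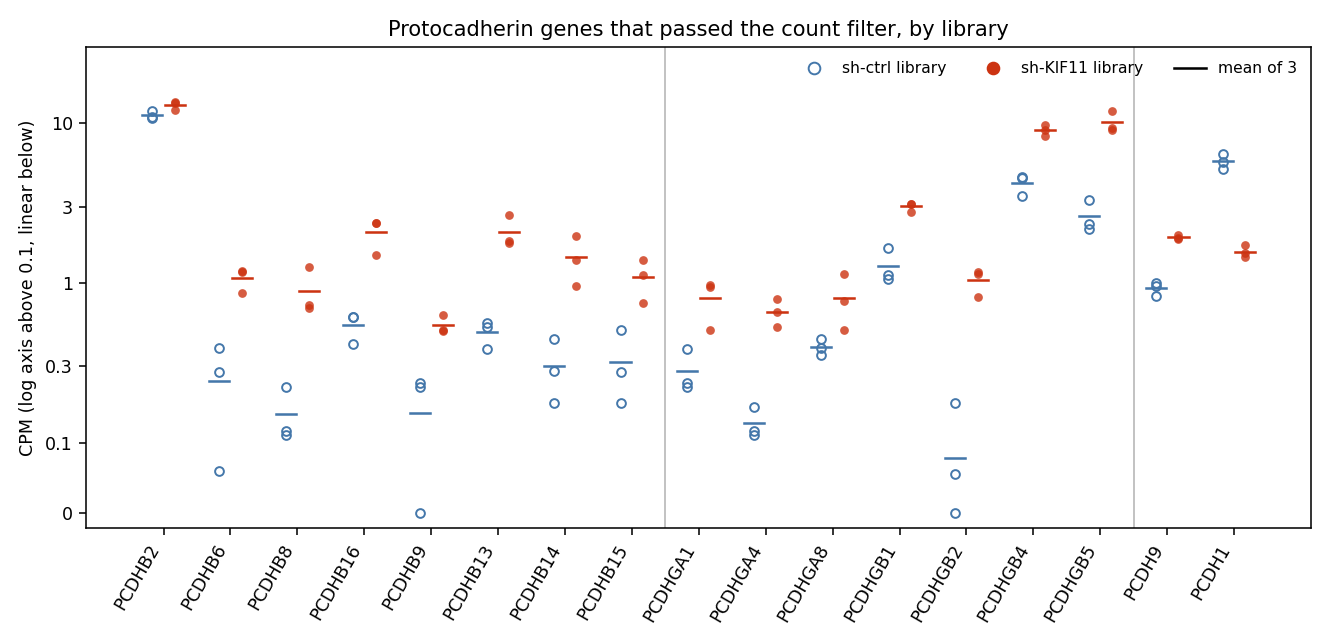
Level of each of the 17 tested protocadherin genes in CPM, on a log axis above 0.1 and a linear axis below, with 1 point per library and a line at the mean of 3. Grey lines part the beta, gamma and non-clustered genes. In 16 genes every sh-KIF11 library lies above every sh-ctrl library, as in 35.4% of all tested genes, and in PCDH1 every sh-KIF11 library lies below, as in 35.8%.

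PCDHB2 was the protocadherin with the highest level per length in both groups. Its deposited FPKM (fragments scaled to transcript length and library size) was 3.45 ± 0.168 (SD, n = 3) in sh-ctrl and 4.68 ± 0.278 in sh-KIF11. PCDHGB4 followed in sh-ctrl at 0.825 ± 0.101 FPKM, then PCDHGB5 at 0.519 ± 0.112 and PCDH1 at 0.367 ± 0.034. In sh-KIF11 the next 2 after PCDHB2 were PCDHGB5 at 2.69 ± 0.460 FPKM and PCDHGB4 at 2.46 ± 0.364, which did not differ beyond their spread. PCDHGB1 came after them at 0.758 ± 0.106 FPKM and PCDHB13 at 0.668 ± 0.174, again within their spread. PCDH1, at 0.114 ± 0.015 FPKM, lay below the means of all 15 tested clustered genes in sh-KIF11, though within the spread of PCDHGA8 and PCDHB9.

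PCDHB2 gave 213, 195 and 185 counts with the control hairpin and 275, 253 and 264 with the KIF11 hairpin. These counts were 11.2 ± 0.617 and 13.1 ± 0.780 CPM, and every sh-KIF11 library was above every sh-ctrl library. The log2 fold change of 0.22 (SE 0.10) did not pass the test, with an edgeR adjusted p of 0.0571, but PCDHB2 passed in 7 of 15 alternatives, among them upper-quartile factors (0.30, adjusted p = 0.0103) and library totals alone (0.45, adjusted p = 1.76e-04). PCDHB2 was thus high in both groups, and it alone made up 35.1% ± 1.29 of all protocadherin counts in sh-ctrl but 23.2% ± 1.43 in sh-KIF11. Its gene lies at chr5:141094578-141098703 on the plus strand (GENCODE release 29, GRCh38), near the start of the beta cluster.

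The other 7 tested beta genes lie further into the cluster and were low in sh-ctrl. PCDHB13 gave 10, 7 and 9 counts with the control hairpin and 36, 55 and 36 with the KIF11 hairpin, for a log2 fold change of 2.07 (SE 0.34, edgeR adjusted p = 9.2e-07). PCDHB16 had 11, 11 and 7 counts against 48, 31 and 47, a log2 fold change of 1.91 (SE 0.33, edgeR adjusted p = 3.14e-06). For PCDHB14, 5, 8 and 3 counts stood against 28, 41 and 19, a log2 fold change of 2.24 (SE 0.42, edgeR adjusted p = 1.14e-05). These 3 genes had between 3 and 11 counts in every sh-ctrl library and at least 19 in every sh-KIF11 library. PCDHB8 had 2, 4 and 2 counts against 14, 15 and 25, a log2 fold change of 2.51 (SE 0.54, edgeR adjusted p = 7.52e-05). PCDHB6 had 7, 5 and 1 counts against 24, 18 and 23, a log2 fold change of 2.10 (SE 0.47, edgeR adjusted p = 1.3e-04). In both genes the lowest sh-KIF11 library was above the highest sh-ctrl library. PCDHB15 had 9, 5 and 3 counts against 15, 29 and 22, a log2 fold change of 1.74 (SE 0.44, edgeR adjusted p = 5.99e-04). PCDHB9 had 4, 0 and 4 counts against 10, 13 and 10, a log2 fold change of 1.80 (SE 0.62, edgeR adjusted p = 0.00966). PCDHB9 is the weakest of the beta calls, and without sh-ctrl replicate 2, the library with 0 counts, it gave 1.22 with an adjusted p of 0.0816.

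Among the clustered genes, the reads of the beta genes are best told apart. The 150-base windows of each gene's GENCODE transcripts were compared with those of the other protocadherin genes and pseudogenes only. A median of 96.6% of a beta gene's windows occurred in none of these, with a range of 82.0% to 100%. Among the tested beta genes the lowest share was 83.8% for PCDHB8, which shared 14.3% of its windows with PCDHB13. Annotated genes on the opposite strand overlap exons of PCDHB2, PCDHB6, PCDHB15 and PCDHB16 and of the gamma gene PCDHGB1, and the strand setting used in counting is not given in the sources used here, so their counts carry that uncertainty.

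In the gamma cluster the genes with the highest FPKM were the B-type PCDHGB5, PCDHGB4 and PCDHGB1. PCDHGB5 gave 42, 60 and 37 counts with the control hairpin and 184, 248 and 185 with the KIF11 hairpin. Its level went from 2.62 ± 0.612 to 10.2 ± 1.57 CPM, a log2 fold change of 1.95 (SE 0.17, edgeR adjusted p = 9.69e-14). No other member had a lower adjusted p, and every sh-KIF11 library stood above every sh-ctrl library. PCDHGB4 had 81, 63 and 78 counts against 183, 173 and 194, or 4.22 ± 0.631 against 9.10 ± 0.739 CPM, with a log2 fold change of 1.11 (SE 0.15, edgeR adjusted p = 1.04e-08). PCDHGB1 had 20, 30 and 18 counts against 56, 65 and 62, a log2 fold change of 1.23 (SE 0.25, edgeR adjusted p = 3.88e-05). All 3 had counts of at least 18 in every library, so these rises do not rest on genes that were near 0 in sh-ctrl. The difference between the changes of these genes was not tested.

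PCDHGB2 went from 0, 1 and 3 counts with the control hairpin to 23, 17 and 23 with the KIF11 hairpin. Its sh-ctrl libraries were at or under the limit of 3 counts, so its mean sh-KIF11 level was set against that limit. This ratio was 6.12, and it leaves out counting error in sh-KIF11, so it is no strict lower bound of the change. The fitted log2 fold change of PCDHGB2 was 3.67 (edgeR adjusted p = 1.24e-06) and depends on the prior count. It became 3.12 without sh-ctrl replicate 1 and 4.93 without sh-ctrl replicate 3. The A-type gene PCDHGA4 had 3, 2 and 2 counts against 16, 11 and 13, a ratio to the same limit of 3.88 (edgeR adjusted p = 6.86e-04 for the fitted change). Both genes were thus hardly detected in sh-ctrl and had at least 11 counts in each sh-KIF11 library. PCDHGA1 had 4, 7 and 4 counts against 19, 20 and 10, a log2 fold change of 1.49 (SE 0.47, edgeR adjusted p = 0.00549). PCDHGA8 had 7, 8 and 6 counts against 23, 16 and 10, a log2 fold change of 1.01 (SE 0.44, edgeR adjusted p = 0.0393). The call of PCDHGA8 is fragile, since it was lost in 9 of the 14 alternatives that tested it, with adjusted p from 0.0109 to 0.258 over all of them.

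Counts of alpha and gamma genes are less certain as to which member they belong to. A gamma gene had a median of 57.7% of its windows in no other protocadherin gene, since the constant exons are shared by the whole cluster. PCDHGB5 had 49.4% unique windows, and 43.2% came from constant exons. PCDHGB4 had only 33.4% unique windows, as 30.1% were constant and 31.3% were shared with PCDHGA8, which lies next to it. How the counting treated reads from shared exons is not given in the sources used here. Constant exon reads were not credited to every gene that shares them. PCDHGC3 and PCDHGC5 had 0 counts in all libraries, though 34.7% and 42.0% of their windows were constant. The rise of PCDHGB5 and PCDHGB4 covers their variable exons and may also hold constant exon reads, at a share that is not known.

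**Figure D2:**
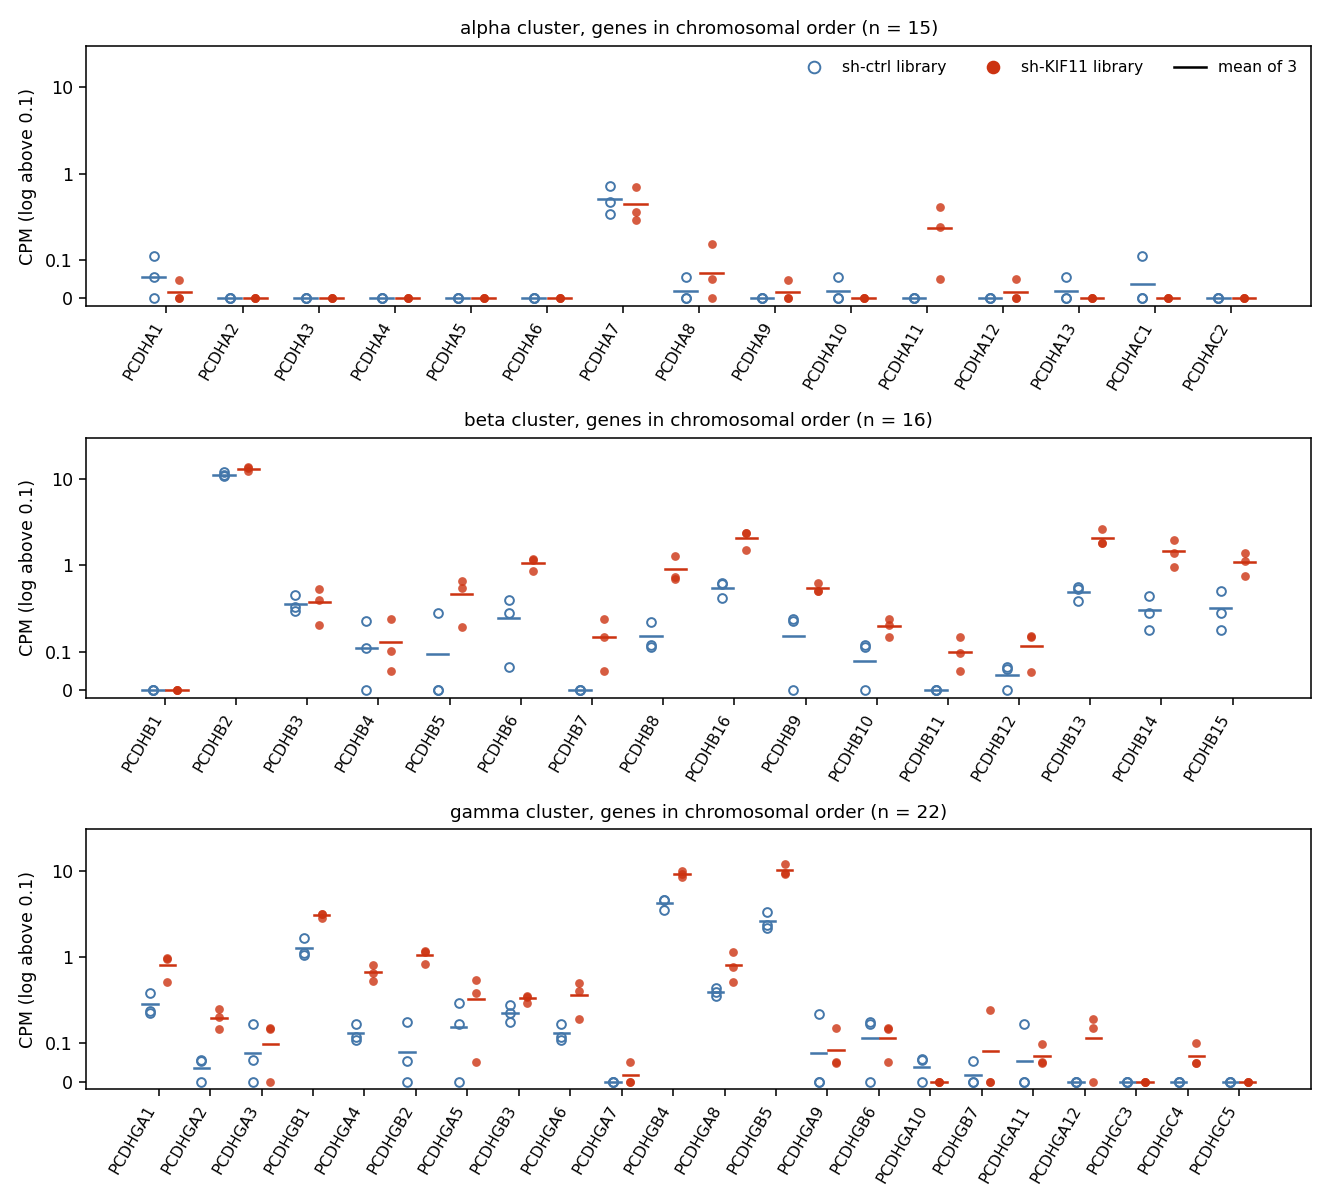
Level in CPM of all 53 clustered protocadherin genes in the order in which they lie on chromosome 5, 1 panel per cluster, on a log axis above 0.1 and a linear axis below, with 1 point per library and a line at the mean of 3. The alpha genes other than PCDHA7 and PCDHA11 stay near 0 in both groups, PCDHB2 stands alone at the high end of the beta panel, and PCDHGB4 and PCDHGB5 stand highest in the gamma panel.

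Where in each cluster the counts came from differed between the clusters. In the beta cluster 15 of 16 genes had counts, all but PCDHB1, and the mean was higher in sh-KIF11 in all 15. The mean was also higher in 54.8% of all genes with counts and in 69.0% of the untested genes with counts. Of the 7 untested ones, PCDHB5 had 5, 0 and 0 counts against 11, 4 and 13, and PCDHB7 had none in sh-ctrl but reached 3, 5 and 1 with the KIF11 hairpin. PCDHB3, next to PCDHB2, had 8, 6 and 5 counts against 8, 11 and 4, so its libraries overlapped. PCDHB4, PCDHB10, PCDHB11 and PCDHB12 had at most 5 counts in any library.

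In the gamma cluster 20 of 22 genes had counts, and the mean was higher in sh-KIF11 in 18 and lower in PCDHGA10 and PCDHGB6. These counts stand beside the same 54.8% of all genes with counts and 69.0% of the untested ones. The genes with the most counts lie in the first part of the cluster, up to PCDHGB5. None of the genes after PCDHGB5 had more than 5 counts in any library. Of the C-type genes, which close the cluster, PCDHGC3 and PCDHGC5 had 0 counts throughout and PCDHGC4 had 1, 1 and 2 counts in sh-KIF11 only. Among the untested A-type genes, PCDHGA6 had 3, 2 and 2 counts against 10, 4 and 8. Its mean sh-KIF11 level was 2.14 times the limit of 3 counts, without a test. PCDHGA5 had 0, 3 and 5 counts against 11, 8 and 1, with overlapping libraries. PCDHGB3 had 4, 5 and 3 counts against 7, 6 and 7. PCDHGA2, PCDHGA3 and PCDHGA7 had at most 5 counts in any library.

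The alpha cluster was close to silent in both groups. Of its 15 genes 6 had no count, and of the other 9 the mean was higher in 4 and lower in 5. PCDHA7 carried most of the alpha counts, at 6, 13 and 8 for the control hairpin against 14, 6 and 7 for the KIF11 hairpin, with overlapping libraries. PCDHA11 was not counted in any sh-ctrl library and reached 1, 5 and 8 counts under the KIF11 hairpin, without a test. Its sh-KIF11 replicate 1 lay under the limit of 3 counts, so no ratio to that limit is given. No other alpha gene had more than 3 counts in any library. At this depth a change in the alpha genes other than these was not detectable.

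Over all 35 untested members with counts, 25 had the higher mean in sh-KIF11 and 10 the lower. That is near the share of all untested genes with counts, of which 69.0% had the higher mean in sh-KIF11, so this count is no result about the members. The share over all genes with counts was 54.8%.

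Summed over each cluster, the level was higher in sh-KIF11 for beta and gamma. The 22 gamma genes together had 9.53, 10.7 and 9.60 CPM in the 3 sh-ctrl libraries and 27.4, 28.4 and 26.7 CPM in the 3 sh-KIF11 libraries. This is a mean of 9.94 ± 0.652 against 27.5 ± 0.902 CPM, a ratio of 2.77. The B-type genes made up most of it, at 8.56 ± 0.262 against 23.9 ± 1.13 CPM (ratio 2.79), while the A-type genes had 1.38 ± 0.391 against 3.55 ± 0.980 CPM (ratio 2.58). Without PCDHGB4 and PCDHGB5 the gamma sum was 3.10 ± 0.679 against 8.21 ± 0.813 CPM, a ratio of 2.65, so the ratio over the remaining 20 genes was nearly the same. A sum over the cluster does not depend on which gamma gene a constant exon read was given to, as long as it was counted and counted once.

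The 16 beta genes together had 15.8, 13.5 and 13.2 CPM in sh-ctrl and 24.0, 23.6 and 24.0 CPM in sh-KIF11, a ratio of means of 1.69. This ratio is set by PCDHB2. Without it, the other 15 genes had 2.89 ± 0.834 against 10.8 ± 0.529 CPM, a ratio of 3.73. The 15 alpha genes had 0.659 ± 0.209 against 0.796 ± 0.149 CPM, a ratio of 1.21 with overlapping libraries. All clustered genes together had 24.7 ± 1.37 against 52.2 ± 0.527 CPM, a ratio of 2.11. These sums are descriptions over the members and carry no test.

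**Figure D3:**
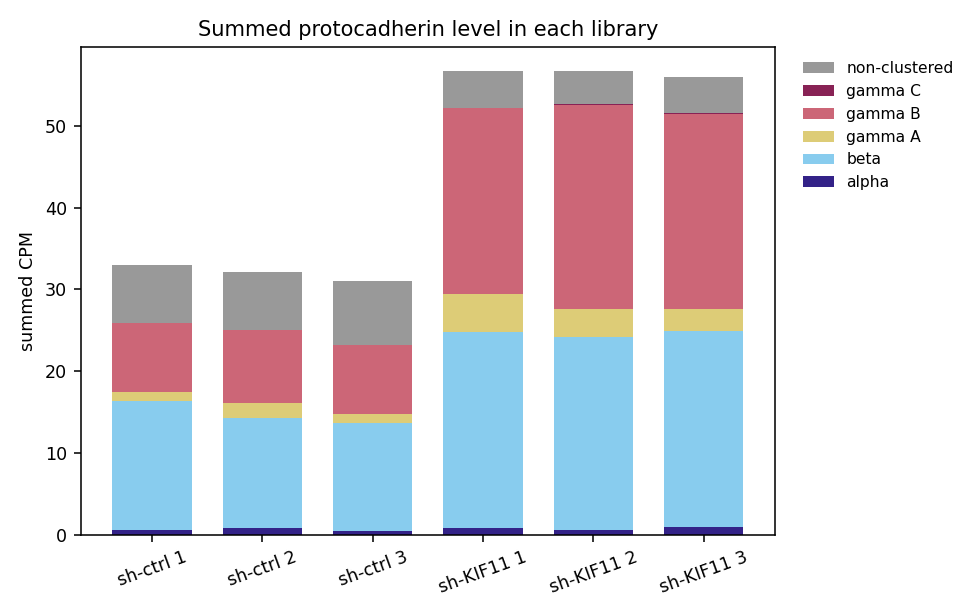
Summed CPM of the protocadherin families in each of the 6 libraries, stacked from alpha at the bottom to the non-clustered genes at the top. The tallest sh-ctrl bar reaches 33.0 CPM and the lowest sh-KIF11 bar 55.9 CPM, with the largest gain in the gamma B-type genes and a thinner non-clustered part.

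The summed level of the non-clustered genes was lower, at 7.29 ± 0.411 CPM in sh-ctrl and 4.32 ± 0.241 CPM in sh-KIF11, a ratio of 0.593. Their share of all protocadherin counts was 22.8% ± 1.96 in sh-ctrl and 7.64% ± 0.436 in sh-KIF11. The clustered genes held the rest, 77.2% ± 1.96 and 92.3% ± 0.433. Within the clustered genes the gamma share was 31.1% ± 2.21 of all protocadherin counts in sh-ctrl but 48.7% ± 1.33 in sh-KIF11, while the beta share was 44.1% ± 3.23 and 42.3% ± 0.681. The beta share thus differed by less than its spread in sh-ctrl.

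The non-clustered sum was set by PCDH1, an adhesion protein of epithelia that also serves as a receptor for some hantaviruses. PCDH1 gave 103, 94 and 109 counts with the control hairpin and 31, 30 and 34 with the KIF11 hairpin. Its level fell from 5.81 ± 0.626 to 1.57 ± 0.139 CPM, a log2 fold change of -1.88 (SE 0.20, edgeR adjusted p = 6.69e-11). A fall of at least 2-fold was called in 3.52% of all tested genes. PCDH1 lies at chr5:141853111-141879246 on the minus strand (GENCODE release 29, GRCh38), on the far side of the gamma cluster. None of its windows occurred in another protocadherin gene.

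PCDH9, on chromosome 13 and known chiefly from the nervous system, gave 17, 18 and 14 counts with the control hairpin and 40, 39 and 38 with the KIF11 hairpin. The log2 fold change was 1.05 (SE 0.29, edgeR adjusted p = 0.00153), and the libraries of each group lay close together. The antisense gene PCDH9-AS1 overlaps its exons. PCDH17 had 0 counts in every control library against 12, 8 and 8 after knockdown, a mean level 2.71 times the limit of 3 counts. It fell short of the filter and was not tested. PCDH19, a gene linked to an inherited epilepsy, had 3, 9 and 5 counts against 4, 4 and 5, with overlapping libraries. PCDH7 had 3, 5 and 0 counts against 0, 2 and 0, also with overlap. PCDH10, PCDH12 and PCDH15, the last a component of the tip links of hair cells, had at most 3 counts in any library, and PCDH8, PCDH11X, PCDH18 and PCDH20 had none.

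The genes around the clusters were looked up to see whether the rise extended beyond the protocadherins. Of 20 tested neighbours 8 were higher and 4 lower, with a median log2 fold change of 0.14 and none higher by as much as 2-fold, where 34.4% of all tested genes were higher and 34.7% lower. Those shares are close, so the counts are no result about the neighbours. The largest rises among them were those of NR3C1 (0.97), RELL2 (0.86), TAF7 and RNF14 (0.69) on the log2 scale. TAF7, a subunit of the general transcription factor TFIID that lies between the beta and gamma clusters, gave 1159, 1232 and 1225 counts with the control hairpin and 2403, 2440 and 2378 with the KIF11 hairpin, for a log2 fold change of 0.80 (SE 0.05, edgeR adjusted p = 1.27e-16). SLC25A2, a mitochondrial ornithine carrier beside it, had 1 count in 1 sh-KIF11 library and none elsewhere. ZMAT2, which lies before the alpha cluster, gave -0.12 (SE 0.06, edgeR adjusted p = 0.0533). DIAPH1, an actin nucleating formin on the far side of the gamma cluster, was lower with a log2 fold change of -0.31 (SE 0.05, edgeR adjusted p = 2.21e-07). CD14, a receptor for bacterial lipopolysaccharide, fell by 1.78 on the log2 scale (SE 0.41, edgeR adjusted p = 1.86e-04) from 25, 24 and 15 counts to 9, 8 and 4, and it was past the count cutoff in sh-ctrl only, so that it had to differ to be tested. The untested neighbour ARAP3 had 1, 1 and 2 counts against 10, 5 and 9, or 0.0766 ± 0.036 against 0.399 ± 0.138 CPM, without overlap.

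Of 12 tested genes of CTCF, cohesin and its loading, 7 were higher and 1 lower, with a median of 0.18 against 0.00 over all tested genes, of which 34.4% were higher and 34.7% lower. CTCF gave a log2 fold change of 0.04 (SE 0.05, edgeR adjusted p = 0.478) and the cohesin subunit RAD21 gave -0.10 (SE 0.05, edgeR adjusted p = 0.0847). SMC1A was lower at -0.15 (SE 0.05, edgeR adjusted p = 0.00668), while SMC3 was higher at 0.33, STAG1 at 0.20 and STAG2 at 0.36 on the log2 scale. The largest change of the list was that of the loading gene NIPBL, higher at 0.50 (SE 0.05, edgeR adjusted p = 7.61e-11). All of these differences were under 1.5-fold. Of 13 tested genes of DNA methylation and repression, among them DNA methyltransferases, TET enzymes and SMCHD1, 5 were higher and 4 lower with a median of 0.06, near the share of all tested genes, and none differed by 2-fold. The highest was TET2, at 0.88 on the log2 scale (SE 0.10, edgeR adjusted p = 9.98e-10), while TET1 and TET3 did not pass. The lowest was TRIM28, at -0.50 (SE 0.05, edgeR adjusted p = 8.72e-12).

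The partners of the proteins were examined likewise, and the counts of the lists that follow stand beside the same 34.4% and 34.7% of all tested genes. The WAVE complex, which drives actin branching and is bound by the tails of many protocadherins, had 5 of 10 subunits or relatives higher and 4 lower with a median of 0.16. WASF3 was the only one past 2-fold, with 646, 668 and 601 counts against 299, 286 and 249 and a log2 fold change of -1.40 (SE 0.08, edgeR adjusted p = 1.46e-18). Of 8 tested kinases and adaptors 3 were higher and 2 lower, with a median of 0.03 and none past 2-fold. Of 8 genes for the ADAM proteases and the gamma-secretase complex, which cut protocadherins at the membrane, 1 was higher and 3 lower with a median of 0.06. The higher one was APH1B, a subunit of gamma-secretase, with 6, 9 and 3 counts against 18, 18 and 22 and a log2 fold change of 1.48 (SE 0.43, edgeR adjusted p = 0.00282), but only its sh-KIF11 libraries were past the count cutoff, so it had to be higher to be tested.

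**Figure D4:**
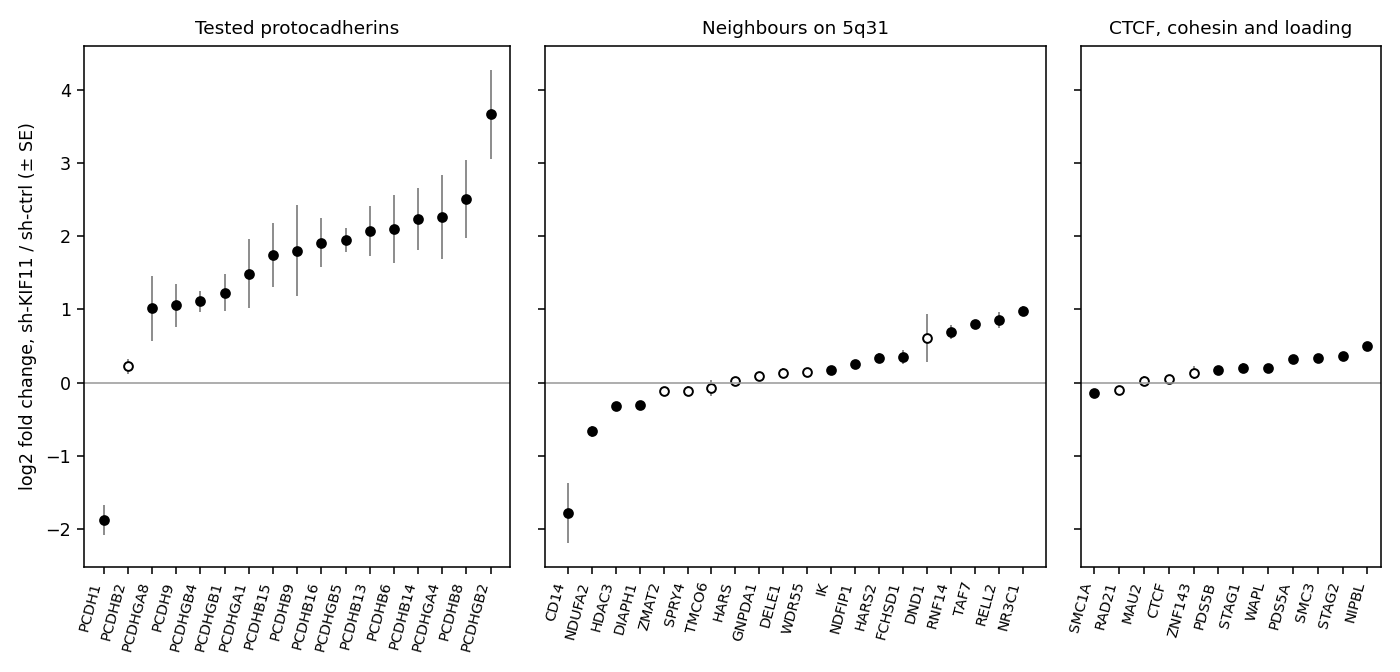
Log2 fold change of sh-KIF11 over sh-ctrl with its SE from the edgeR fit, for the 17 tested protocadherins, the 20 tested neighbours of the clusters and 12 tested genes of CTCF, cohesin and its loading, each panel ordered by value. Filled points passed an adjusted p of 0.05. The protocadherins other than PCDH1 and PCDHB2 lie at 1.01 or above, but 11 of these passed the count filter through sh-KIF11 and had to be high, whereas most genes of the other panels were well counted in both groups, so the panels cannot be compared by their heights.

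Since clustered protocadherins are best known from neurons, markers of neurons were set beside them. Of 14 neuron markers, DCX, ELAVL4, NEFL, NEFM and STMN2 had 0 counts in every library. RBFOX3, SNAP25, INA and SYT1 had at most 12 counts in any library, with overlapping groups, and were not tested. The other 5 could be tested, of which 4 were higher. Among these, MAP2, GAP43 and ELAVL3 passed the count filter through sh-KIF11 alone and had to be higher to be tested. SYN1 and TUBB3 were counted in both groups, and their log2 fold changes were 0.04 (SE 0.17, edgeR adjusted p = 0.855) and 0.56 (SE 0.05, edgeR adjusted p = 2.05e-12). TUBB3 carried most of their sum, which was 119.1 to 132.1 CPM in sh-ctrl and 179.1 to 194.9 CPM in sh-KIF11. MAP2 had 5, 3 and 2 counts against 15, 38 and 21, a log2 fold change of 2.65 (SE 0.49, edgeR adjusted p = 9.44e-06). GAP43 had 0, 4 and 0 counts against 13, 12 and 16 (log2 fold change 3.06, edgeR adjusted p = 1.81e-04), and ELAVL3 had 9, 2 and 4 against 11, 23 and 10 (log2 fold change 1.33, edgeR adjusted p = 0.0199). Of 12 markers of fibroblasts, endothelium and blood, 4 could be tested, of which VWF was higher (1.01), PDGFRB and CD68 were lower (-1.16 and -0.90) and PECAM1 did not pass. The summed level of the 12 was 83.2 to 94.8 CPM in sh-ctrl and 48.2 to 52.7 CPM in sh-KIF11. CD68 carried most of that sum, with means of 82.3 and 44.2 CPM, and DCN was at 0 throughout. The part of any of these cells or genes in the protocadherin values was not tested.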

How the data were processed

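Poly(A) RNA of HepG2 cells was sequenced by the study as stranded libraries with paired-end reads of 150 bases, 3 for sh-ctrl and 3 for sh-KIF11. The authors deposited unnormalized read counts by gene and, for the same genes, FPKM values, scaled by them to the length of the transcript and the size of the library. The submitters' processing notes name bcl2fastq 1.8.4, Trimmomatic, HISAT2 2.1.0, Cufflinks 2.2.1, HTSeq 0.9.1 and DESeq with the build GRCh38. The setting for strand and for reads matching several genes is not given in the sources used here. Knockdown columns carry only the name shRNA and were taken as sh-KIF11, the only other hairpin name in the labels.

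The deposited counts were tested with edgeR 4.0.16 under R 4.3.3 (quasi-likelihood test, TMM, filterByExpr with a minimum count of 10, group as the only term, two-sided) over 12369 genes, with Benjamini-Hochberg adjustment over all of them and a threshold of 0.05. Members were read from that fit. An exact permutation test of 3 against 3 libraries cannot give a p under 0.1. Values are mean ± SD over 3 libraries. The detection limit was set at 3 counts in each library of a group. The members and the gene lists were chosen with earlier results of these data known, and the motifs after seeing the promoters. Every member is accounted for except that a Y-linked one is counted without a value. Singly named are the tested members, KIF11, listed genes past the threshold with at least a 2-fold change, CTCF, the cohesin subunits and the nearest neighbours. TTR, the neuron markers at 0, TUBB3, SYN1, CD68, PECAM1, DCN, ARAP3 and PCDH9-AS1 were named in addition after their values were seen. So were NR3C1, RELL2, RNF14, NIPBL, TET1, TET2, TET3, TRIM28, RBFOX3, SNAP25, INA and SYT1. The untested members are given by their counts. Uniqueness was read from 150-base windows of GENCODE release 29 transcripts, searched among protocadherin genes and pseudogenes only. In simulated counts, edgeR recovered 96.5% of 200 genes with a planted log2 change of 1 among 11942 genes, with 6 other calls. That simulation used a fixed spread and planted changes only in genes with at least 10 expected counts in sh-ctrl. Its recovery therefore does not describe the members with fewer counts there.

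Alternatives were RLE and upper-quartile factors, library totals alone, no filter, 10 counts in every library, DESeq2 1.42.0, limma 3.58.1 on log2(FPKM + 1) and log2(FPKM + 0.1), the replicate block and each library left out. The chi-square divided by its degrees of freedom lay at 2.62 to 7.83 between libraries within a group, more than sampling noise gives, and 80.2 to 97.8 between groups.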

Additional observations from a re-analysis of the deposited data

How the results depend on the processing

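No alternative reversed the direction of any of the 17 tested members or of KIF11, and PCDH1 was called lower in each of the 15 settings. The count of higher members, 15 in the fit reported, was 5 when at least 10 counts were required in every library, which left only 6 members to test, and 13 to 16 when 1 library was left out. Clustered genes higher numbered 14, 4 under that filter and 12 to 15 with 1 library left out. Of non-clustered genes higher, 1 became 2 without a filter, when PCDH17 was tested and passed, and 0 with limma on log2(FPKM + 1), a scale that compresses low genes. PCDHGA8 lost its call in 9 settings, PCDHB9 without sh-ctrl replicate 2, and PCDH9 with limma on log2(FPKM + 1). PCDHB2 passed in 7 of 15 settings, with log2 fold changes from 0.19 to 0.45. Scaling by library totals alone moved the median of all tested genes by 0.23, upper-quartile factors by 0.08, and limma on log2(FPKM + 1) and log2(FPKM + 0.1) by 0.11 and 0.16. Higher against lower calls over all genes, 4254 against 4294, became 6619 against 2378, 5014 against 3563, 5635 against 2596 and 5666 against 2597 there. The log2 ratio of the beta sum was 0.76, and 0.99 with library totals, 0.90 with summed FPKM and, in an alternative added after seeing the data, 1.90 without PCDHB2. That of the gamma sum was 1.47, with 1.70 by library totals and 1.90 by FPKM, and that of the non-clustered sum -0.76, with -0.52 by library totals. With 1 library left out these ranged from 0.71 to 0.84 (beta), 1.44 to 1.52 (gamma), -0.79 to -0.71 (non-clustered) and 0.08 to 0.55 (alpha).

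The replicate numbers did not pair the libraries, since same-numbered ones had correlated deviations of 0.03, -0.02 and -0.00. With the replicate block, 8607 genes were called instead of 8548, and of the members only PCDHGA8 changed its call (adjusted p = 0.0531).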
